A study of Populus tremula x Populus tremuloides with 6 samples.

Results

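Among the most heavily sequenced transcripts of poplar leaves were 70 loci that each reached a mean of at least 1000 CPM (read counts scaled to an equal library total, where the total is the reads given to any locus) over 6 leaf libraries. They were chosen from 37662 loci by that level, by an identifier that starts with Potra, and by a mean in MYB117 plants between 1/4 and 4 times the mean in wild type. The level and the ratio that chose them come from the same 6 libraries, so levels, shares and genotype differences of the 70 loci are given as a description. Of 82 loci at or above 1000 CPM, 9 with an identifier lay beyond the 4-fold limit, all 9 higher in MYB117, and 3 carried no identifier. The loci left out had means of up to 5233 CPM, so the ranks below are an order within the 70 loci.

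The plants were hybrid poplars (Populus tremula x Populus tremuloides, clone INRA 353-38): 3 transgenic plants that overexpress MYB117 from the binary vector pMDC32, which carries a constitutive viral promoter, and 3 wild-type (WT) plants. The MYB117 plants came from leaf pieces transformed with Agrobacterium tumefaciens, and the labels do not say whether they stem from 1 or several transformation events. All plants were kept in mist for 1 month and then in the greenhouse for 2 months. The tissue was leaves 7 to 10 by leaf plastochron index, which counts leaves downward from the shoot tip, and libraries were made from enriched messenger RNA.

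MYB117 is a plant transcription factor of the MYB family, several members of which switch on the genes of anthocyanin and other phenylpropanoid pathways. In leaves generally, a small number of nuclear genes takes a large part of the messenger RNA, among them those for the small subunit of Rubisco, the enzyme that fixes carbon dioxide, and for the chlorophyll-binding proteins of the light-harvesting antennae. No gene or product names come with the identifiers, so none of the 70 loci is given a function here. MYB117 itself and markers of leaf cell types were not analysed, and no value below checks the genotype labels.

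Reads in loci numbered 35164729 to 49442174 in the MYB117 libraries and 28960403 to 38013856 in the WT libraries. The smallest count of any of the 70 loci in any library was 7456 reads, for which counting error alone is 1.16%, so counting error is small beside most differences between plants. All 70 loci passed the filter on low counts. Loci are named by their rank in mean CPM over the 6 libraries, and values of 3 libraries are in the order of replicates 1, 2 and 3. CPM counts reads and not molecules: a long transcript gives more reads than a short one of equal abundance, transcript lengths were not used here, and the rank is an order of reads.

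The 70 loci, 0.186% of all loci, held 17.6%, 12.6% and 12.8% of the reads of MYB117 leaves, against 27.1%, 20.5% and 20.5% of the reads of WT leaves. The lowest WT share was above the highest MYB117 share. The means were 14.3% ± 2.84 in MYB117 and 22.7% ± 3.79 in WT (SD, n = 3 each), a difference of -8.36 percentage points. The ratio limit sets aside 9 loci that were higher in MYB117, and with them included the difference was -4.72 points. In bulk leaf tissue, fewer cells of a type and less RNA per cell cannot be told apart.

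The first 10 ranks held more of this difference than the other 60. Ranks 1 to 10 held 5.09% ± 2.32 of the reads in MYB117 leaves and 9.98% ± 2.69 in WT leaves (n = 3 each), which is -4.88 points. Of these, -1.33 points came from ranks 2, 3 and 8, where the groups overlapped and replicate 1 was the highest plant of both genotypes. Ranks 11 to 70 held 9.22% ± 0.599 in MYB117 leaves and 12.7% ± 1.102 in WT leaves, which is -3.48 points. Shares add up to 100% in each library, so a lower share of some loci goes with a higher share of others. The 9 loci beyond the ratio limit held 3.75% ± 0.156 of the reads in MYB117 leaves and 0.113% ± 0.0336 in WT leaves. Loci of 100 to 1000 CPM, 1650 in number, held 37.1% ± 0.457 in MYB117 and 34.7% ± 1.23 in WT, and the 11844 loci of 10 to 100 CPM held 39.8% ± 2.07 in MYB117 and 37.4% ± 2.64 in WT.

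**Figure D1:**
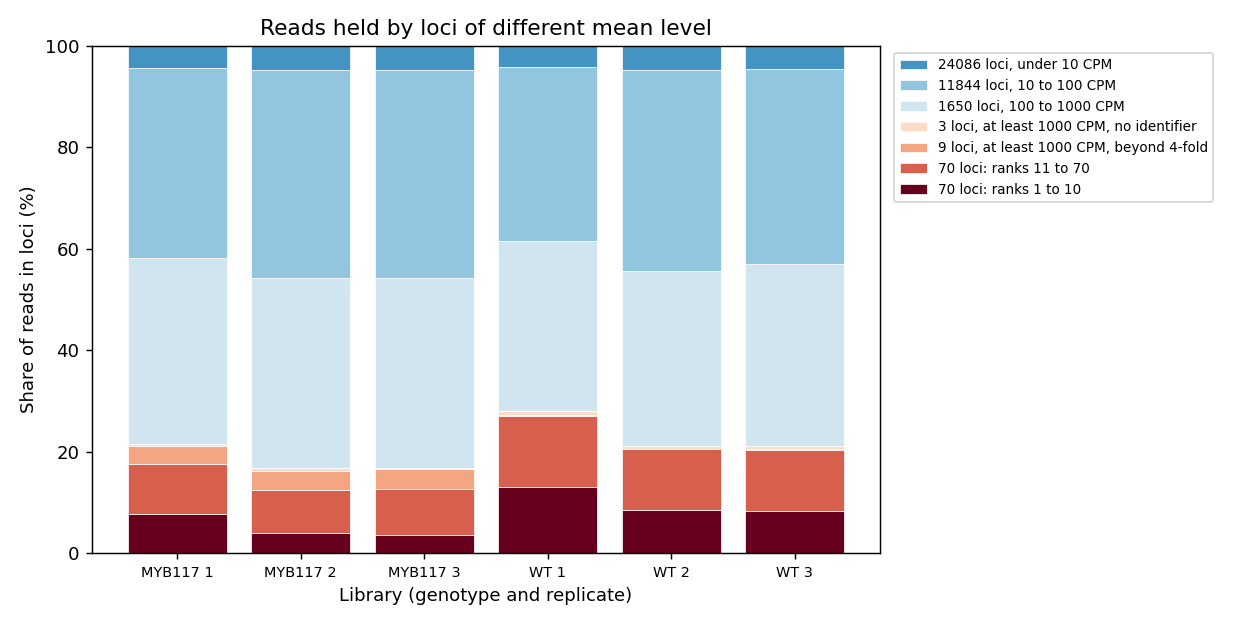
Share of the reads in loci (y axis, %) held by loci of different mean level in each library (x axis). The 2 darkest red blocks at the bottom are the 70 loci, which reach 12.6% to 17.6% in the MYB117 libraries and 20.5% to 27.1% in the WT libraries.

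Reads were spread over more loci in 2 of the 3 MYB117 libraries than in any WT library. It took 922, 1280 and 1292 loci to hold 50% of the reads in MYB117 leaves, against 590, 1091 and 984 loci in WT leaves. In both genotypes replicate 1 had the smallest number, and MYB117 replicate 1 lay among the WT libraries. The median of the 70 loci was 1590, 1348 and 1307 CPM in MYB117 leaves, against 2125, 1879 and 1947 CPM in WT leaves, with no overlap.

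Levels within the set spanned a wide range, with a mean of 15765 CPM at rank 1, a median of 1808 CPM and 1008 CPM at rank 70. Of the 70 loci, 35 were at or above 1000 CPM in all 6 libraries, 41 in all 3 MYB117 libraries and 61 in all 3 WT libraries. The MYB117 mean was below 1000 CPM at 17 loci and the WT mean at 6. The 5 loci just inside the level limit had means of 1008 to 1067 CPM and the 5 just outside it, within the ratio limit, 958 to 980 CPM, so the edge of the set falls in a continuous run of levels. At the other limit, the smallest ratio among the 9 loci set aside was 5.38, and ratios within the 70 ran from 0.276 at rank 8 to 3.36 at rank 18.

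**Figure D2:**
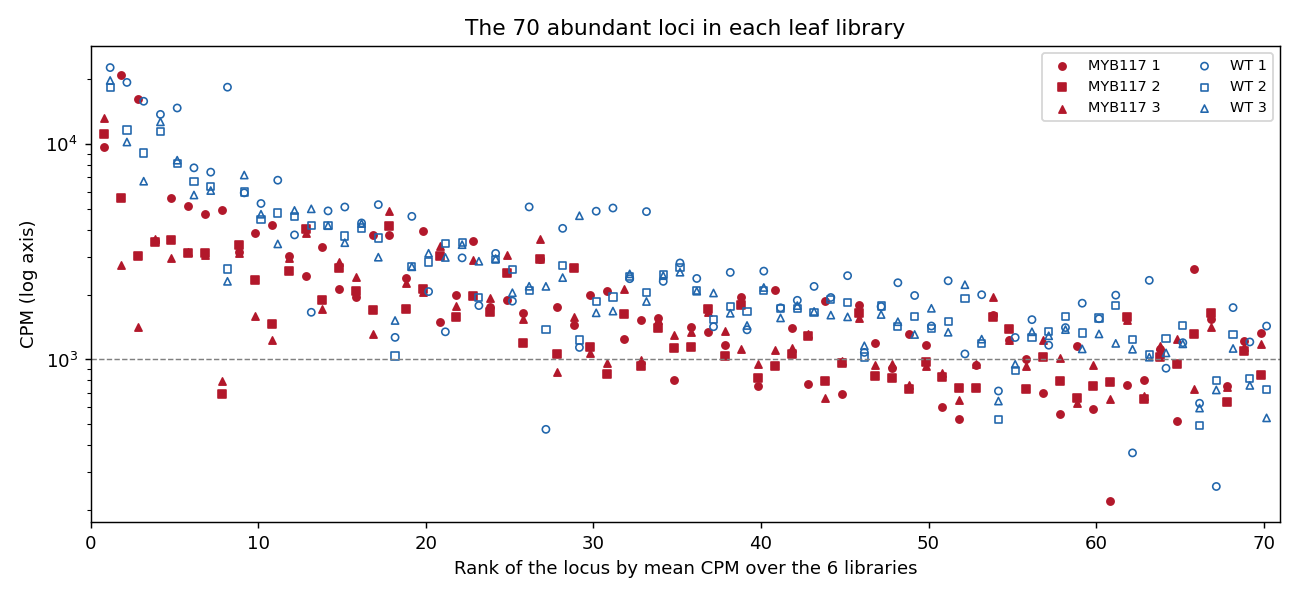
CPM (y axis, log scale) of each of the 70 loci in each library, ordered by mean CPM (x axis); filled red symbols are MYB117 libraries, open blue symbols WT libraries, and the shape gives the replicate. Red symbols lie below blue ones at 38 loci and above them at 6, and the dashed line marks 1000 CPM.

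Rank 1 was the most abundant of the 70 in all WT libraries and in 2 of the 3 MYB117 libraries. It had 9650, 11169 and 13218 CPM in MYB117 leaves, against 22624, 18223 and 19709 CPM in WT leaves. The groups did not overlap, and this single locus held 1.13% ± 0.179 of the reads in MYB117 and 2.02% ± 0.224 in WT. Its fitted log2 fold change was -0.95 (SE 0.43) and did not pass the test across all loci, which was edgeR's quasi-likelihood test at an adjusted p below 0.05.

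At ranks 2, 3 and 8 the groups overlapped, and replicate 1 was the highest plant of both genotypes. Rank 2 had 20789, 5590 and 2744 CPM in MYB117 leaves, against 19310, 11626 and 10213 CPM in WT leaves. Rank 3 had 16112, 3020 and 1409 CPM in MYB117 leaves, against 15786, 9074 and 6719 CPM in WT leaves. In MYB117 replicate 1 both loci stood slightly above every WT library, while replicates 2 and 3 stood below every WT library. Rank 8 had 4938, 689 and 797 CPM in MYB117 leaves, against 18350, 2627 and 2305 CPM in WT leaves. Replicate 1 was 6.66 times the geometric mean of replicates 2 and 3 in MYB117 and 7.46 times in WT, while within each replicate number the MYB117 plant was the lower one. Together these 3 loci held 1.87% ± 2.02 of the reads in MYB117 and 3.20% ± 1.87 in WT, and without them the other 67 held 12.4% ± 0.888 in MYB117 and 19.5% ± 1.95 in WT.

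The other loci of the first 10 ranks were lower in every MYB117 library than in any WT library. Rank 4 is described below with the called loci. Rank 5 had 5641, 3584 and 2953 CPM in MYB117 leaves, against 14692, 8147 and 8412 CPM in WT leaves. At rank 6 the levels were 5131, 3109 and 3145 CPM in MYB117 leaves, against 7751, 6712 and 5798 CPM in WT leaves. Rank 7 had 4717, 3112 and 3057 CPM in MYB117 leaves, against 7402, 6353 and 6080 CPM in WT leaves. The fitted log2 fold changes of ranks 5, 6 and 7 were -1.47 (SE 0.51), -0.92 (SE 0.41) and -0.96 (SE 0.38), and none was called. Replicate 1 was the highest plant of both genotypes at ranks 5, 6, 7 and 10 too. Rank 9 varied less between plants of a genotype, with 3157, 3395 and 3118 CPM in MYB117 leaves, against 5933, 5981 and 7176 CPM in WT leaves (log2 fold change -1.07, SE 0.31, not called). Rank 10 had 3882, 2333 and 1600 CPM in MYB117 leaves, against 5295, 4463 and 4721 CPM in WT leaves.

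Across all 70 loci, 38 were lower in every MYB117 library than in any WT library, 6 were higher in every MYB117 library, and 26 overlapped. Over all 26854 tested loci, 15.0% were lower without overlap and 23.0% higher. Of the 70, 9 were called lower, against 7.19% of all tested loci, and 2 were called higher, against 9.94%. Among the 1650 loci of 100 to 1000 CPM, 11.9% were called lower and 14.2% higher. The limit on the ratio takes the largest differences out of the 70, so nothing is read from these shares. The median fitted log2 fold change was -0.85 for the 70 loci, -0.06 for all tested loci and 0.04 for loci of 100 to 1000 CPM. Fitted values were below 0 at 57 of the 70 loci, against 54.1% of all tested loci, and at 54 of the 70 when libraries were scaled by their total alone.

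**Figure D3:**
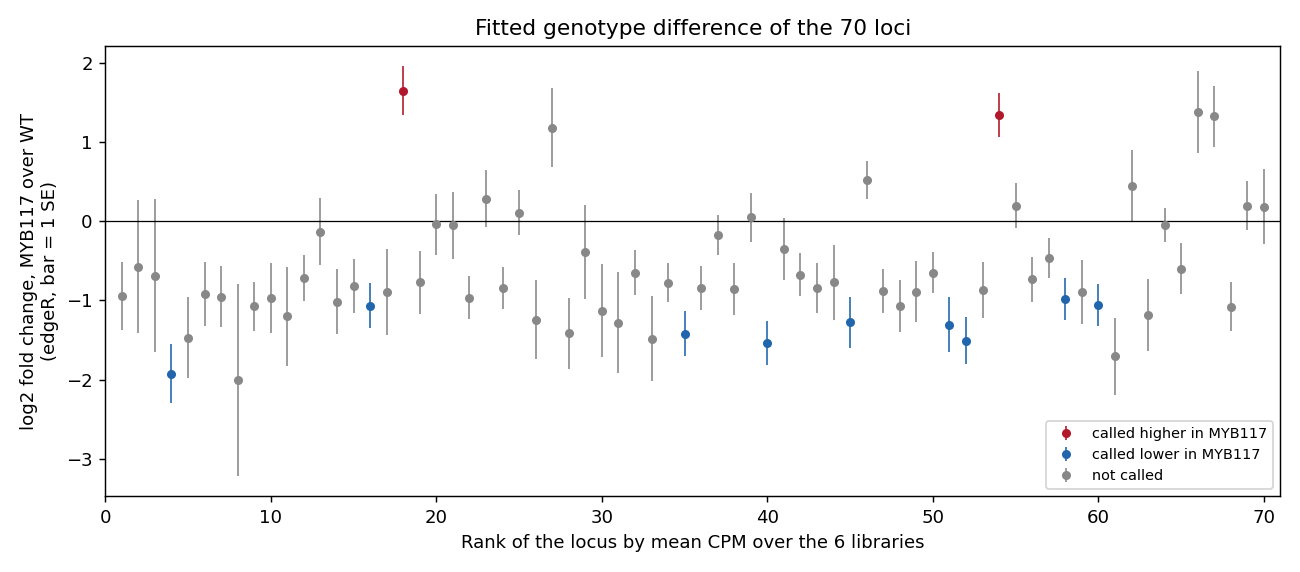
Fitted log2 fold change of each of the 70 loci, MYB117 over WT (y axis, bars are 1 SE), in order of mean CPM (x axis). Blue points were called lower (9 loci), red points called higher (2 loci), and grey points were not called; 57 points lie below 0.

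The 9 loci called lower had WT means of 1456 to 12609 CPM and together held 1.15% ± 0.137 of the reads in MYB117 and 3.01% ± 0.184 in WT. Their mean CPM was 1.84 to 3.53 times as high in WT as in MYB117. The most abundant of them, Potra001151g10020 at rank 4, also had the largest fitted fall of the 9. It had 3552, 3522 and 3640 CPM in MYB117 leaves, against 13720, 11435 and 12672 CPM in WT leaves (log2 fold change -1.92, SE 0.37). Its 3 MYB117 plants lay close together, at 3571 ± 61.3 CPM (SD, n = 3). The next largest fall was that of Potra001613g13290 at rank 40, with 753, 817 and 957 CPM in MYB117 leaves, against 2571, 2084 and 2158 CPM in WT leaves (log2 fold change -1.54, SE 0.28). Leaving out MYB117 replicate 2 or 3 ended both calls, with log2 fold changes of -1.89 and -1.91 at rank 4 and of -1.50 and -1.61 at rank 40.

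The other 7 loci called lower were at ranks 16, 35, 45, 51, 52, 58 and 60, with fitted log2 fold changes of -1.51 to -0.99. Without any 1 MYB117 library 0 of these 7 were called (edgeR). All 7 had an unadjusted p below 0.05 in these fits. The fits reuse most libraries of the one that chose the 7, so this is no separate support. Of the 7, rank 35 alone was called without WT replicate 2, while 4 loci were called without WT replicate 3 and 6 loci without WT replicate 1. Ranks 58 and 60 lost their calls when libraries were scaled by their total alone, and ranks 16 and 58 with no low count filter. With a replicate block, ranks 16, 45, 51, 58 and 60 were not called. Rank 16 had 1955, 2085 and 2427 CPM in MYB117 leaves, against 4301, 4077 and 4273 CPM in WT leaves. At rank 35 the levels were 807, 1134 and 1293 CPM in MYB117 leaves, against 2805, 2669 and 2541 CPM in WT leaves. Both were steady among WT plants, at 4217 ± 122 and 2672 ± 132 CPM (SD, n = 3). Rank 52 had 531, 735 and 651 CPM in MYB117 leaves, against 1061, 1921 and 2223 CPM in WT leaves, and here replicate 1 was the lowest of both genotypes. Its identifier is also carried by another locus, which had 0 reads in all 6 libraries, and that of rank 55 by another with a mean of 351 CPM. Rank 51 shares the first part of its identifier, before the letter g, with rank 26, the only such pair among the 70. Rank 51 had 599, 825 and 866 CPM in MYB117 leaves, against 2319, 1500 and 1338 CPM in WT leaves, and rank 26 had 1644, 1193 and 1545 CPM in MYB117 leaves, against 5104, 2098 and 2187 CPM in WT leaves. Both loci were lower in all MYB117 plants, and in both WT replicate 1 was the highest library.

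The 2 loci called higher were at ranks 18 and 54. Potra000756g05965, at rank 18, had 3797, 4152 and 4907 CPM in MYB117 leaves, against 1266, 1039 and 1517 CPM in WT leaves (log2 fold change 1.64, SE 0.31). Among the 70 loci it stood at ranks 11, 3 and 2 in the MYB117 libraries and at ranks 57, 63 and 47 in the WT libraries. Potra000594g04503, at rank 54, had 1615, 1574 and 1950 CPM in MYB117 leaves, against 714, 527 and 641 CPM in WT leaves (log2 fold change 1.34, SE 0.28). The call of rank 18 was lost without MYB117 replicate 2 or 3 or WT replicate 2, at log2 fold changes of 1.69, 1.57 and 1.47. That of rank 54 was lost without any 1 library except WT replicate 1, at log2 fold changes of 1.17 to 1.42.

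A further 4 loci, at ranks 27, 46, 66 and 67, were higher in every MYB117 library than in any WT library and were not called. Rank 27 had 2914, 2926 and 3631 CPM in MYB117 leaves, against 474, 1379 and 2184 CPM in WT leaves. Rank 67 had 1541, 1641 and 1412 CPM in MYB117 leaves, against 257, 801 and 722 CPM in WT leaves. The spread at these 2 loci was among the WT plants, where replicate 1 was the lowest. Rank 66 had it among the MYB117 plants, with 2642, 1314 and 733 CPM there and 626, 494 and 595 CPM in WT. Rank 46 was steady in both genotypes, at 1662 ± 115 CPM in MYB117 leaves and 1088 ± 65.3 CPM in WT leaves (SD, n = 3 each; log2 fold change 0.52, SE 0.25).

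Among the 29 loci that were lower without overlap and not called, fitted log2 fold changes ran from -1.71 to -0.65, with a median of -0.92. The lowest value was at rank 61, with 221, 790 and 658 CPM in MYB117 leaves, against 1989, 1784 and 1188 CPM in WT leaves. MYB117 replicate 1 was far below the other MYB117 plants there. Rank 24 was an even case, with 1747, 1670 and 1920 CPM in MYB117 leaves, against 3107, 2904 and 2939 CPM in WT leaves (log2 fold change -0.85, SE 0.27). Rank 34 was similar, with 1565, 1402 and 1526 CPM in MYB117 leaves, against 2304, 2487 and 2449 CPM in WT leaves (log2 fold change -0.78, SE 0.25).

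Of the 26 loci whose groups overlapped, 10 had a fitted log2 fold change within 0.25 of 0. Rank 64 was even over the 6 libraries, with 1113, 1024 and 1156 CPM in MYB117 leaves, against 911, 1255 and 1073 CPM in WT leaves (log2 fold change -0.05, SE 0.22). Rank 37 had 1340, 1724 and 1667 CPM in MYB117 leaves, against 1419, 1537 and 2035 CPM in WT leaves (log2 fold change -0.17, SE 0.26). A fitted value near 0 did not always go with steady levels. Rank 21 had 1496, 3015 and 3360 CPM in MYB117 leaves, against 1344, 3457 and 2975 CPM in WT leaves, and rank 13 had 2446, 4035 and 3863 CPM in MYB117 leaves, against 1656, 4176 and 5001 CPM in WT leaves. At both loci replicate 1 was the low plant of each genotype. The other plants of the 2 genotypes overlapped at rank 21. At rank 13 the other WT plants both stood above the other MYB117 plants. Rank 29 was highest in WT replicate 3 and next highest in MYB117 replicate 2, with 1452, 2648 and 1580 CPM in MYB117 leaves, against 1137, 1231 and 4646 CPM in WT leaves.

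Replicate 1 stood apart in both genotypes across much of the set. At 28 of the 70 loci replicate 1 was the highest of the 3 plants in MYB117 and in WT, against 2957 of the 26854 tested loci and 16.5% of loci of 100 to 1000 CPM. At 10 of the 70 (14.3%) it was the lowest in both, against 38.0% of all tested loci and 40.3% of loci of 100 to 1000 CPM. A high replicate 1 also raises the mean that admits a locus. The rule was therefore applied to replicates 2 and 3 alone, which chose 69 loci, 64 of them shared with the 70. In those 69 loci, replicate 1, which took no part in choosing them, was highest in both genotypes at 22 (31.9%) and lowest in both at 14 (20.3%). TMM-scaled CPM allow for a few abundant loci taking up reads. With them, replicate 1 was highest in both genotypes at 44.9% of the 69 loci. Replicate 1 was so at 25.2% of loci of 100 to 1000 CPM and at 19.7% of all tested loci. On that scale it was lowest in both at 5.71% of the 70 loci and 8.70% of the 69, against 22.8% of all tested loci and 23.4% of loci of 100 to 1000 CPM. These differences between sets were not tested, and the labels do not say what plants of the same number share.

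**Figure D4:**
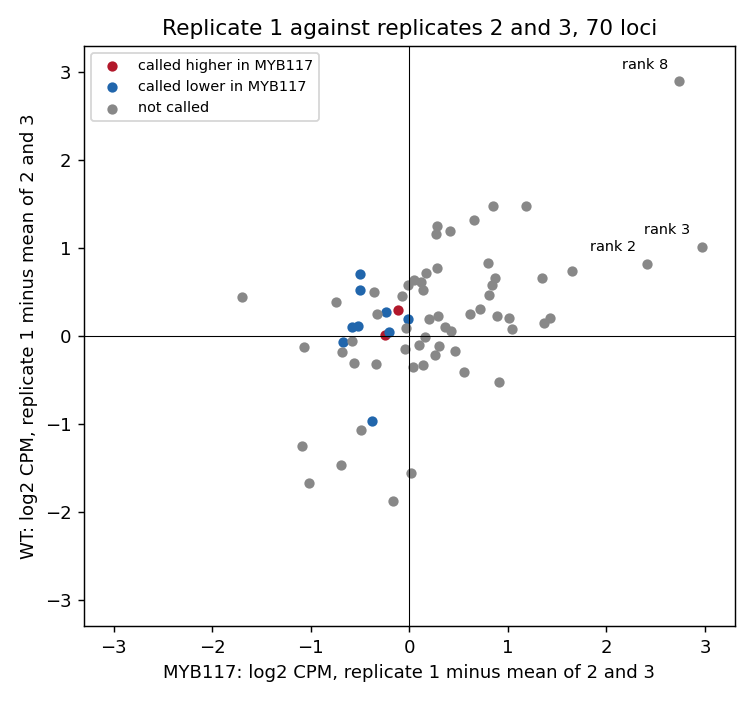
For each of the 70 loci, log2 CPM of replicate 1 minus the mean log2 CPM of replicates 2 and 3, in MYB117 (x axis) and in WT (y axis); colours give the call between genotypes. Ranks 2, 3 and 8 lie far to the upper right, and the 11 called loci all lie left of 0 on the x axis.

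None of the 28 loci with replicate 1 highest in both genotypes was called in the fit of all libraries. The share called among all tested loci of that pattern was not computed. A replicate 1 set apart also widens the spread within a genotype, so nothing is read from this count. At 3 of the 28 loci, ranks 3, 8 and 31, replicate 1 was more than 2 times the geometric mean of replicates 2 and 3 in both genotypes. Rank 31 had 2074, 861 and 963 CPM in MYB117 leaves, against 5046, 1950 and 1677 CPM in WT leaves. Within each genotype 15 of the 70 loci differed more than 2-fold between plants. Replicate 1 was the plant farthest from the others at all 15 such loci in MYB117 (11 high and 4 low) and at 14 of the 15 in WT (8 high and 6 low). The median ratio of the highest to the lowest plant was 1.55 in MYB117 and 1.45 in WT for the 70 loci, and 1.44 in MYB117 and 1.66 in WT for all tested loci.

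The number of called loci depended on which libraries were used. Without replicate 1 of both genotypes, 39 of the 70 loci were called lower and 3 higher (edgeR's quasi-likelihood test), against 9.90% and 10.7% of all loci tested in that fit. It rests on replicates 2 and 3 of each genotype alone, and leaving out the plants that stood apart lowers the spread. The 39 include all 9 loci called lower with 6 libraries and 9 of the first 10 ranks. The median SE of the 70 log2 fold changes was 0.20 in that fit, against 0.35 with all libraries. Over all tested loci the median SE was 0.24 in that fit, against 0.29 with all libraries. Rank 8 had a log2 fold change of -1.79 (SE 0.20) without replicate 1, against -2.01 (SE 1.21) with it. Rank 3 moved further, to -1.89 (SE 0.40) without replicate 1, against -0.69 (SE 0.96) with it. Rank 1 was not called in either fit. DESeq2 with all libraries called 35 of the 70 lower and 5 higher, against 13.0% and 14.6% of all tested loci. Leaving out MYB117 replicate 2 or 3 alone left 0 of the 70 called, where 16 and 19 had an unadjusted p below 0.05 (edgeR). The share of all tested loci below that unadjusted limit was not computed, so nothing is read from the 16 and 19. Calls fell over all tested loci too. Without replicate 2, 1.16% were called lower and 4.53% higher, and without replicate 3, 1.62% lower and 4.62% higher.

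The order of the 70 loci was on the whole closer among plants of a genotype than between genotypes, though not for every pair. The median Spearman's rank correlation over the 70 loci was 0.73 between MYB117 libraries, 0.82 between WT libraries and 0.53 between libraries of different genotype. It was 0.92 between MYB117 replicates 2 and 3, and 0.73 and 0.60 between MYB117 replicate 1 and these. The WT plants gave 0.91 between replicates 2 and 3, and 0.82 and 0.71 between WT replicate 1 and these. Between the genotypes it ran from 0.23, for MYB117 replicate 3 with WT replicate 1, to 0.68, for MYB117 replicate 2 with WT replicate 3. Over all 26854 tested loci the same pairs between genotypes gave 0.872 to 0.927, where the wide range of levels raises the value. Pairs within a genotype gave 0.967 to 0.986 in MYB117 and 0.925 to 0.975 in WT over those loci. The closer order within a genotype is therefore not particular to the 70. These correlations are across loci, which are not independent replicates, and the choice of loci in a narrow range of levels lowers them.

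**Figure D5:**
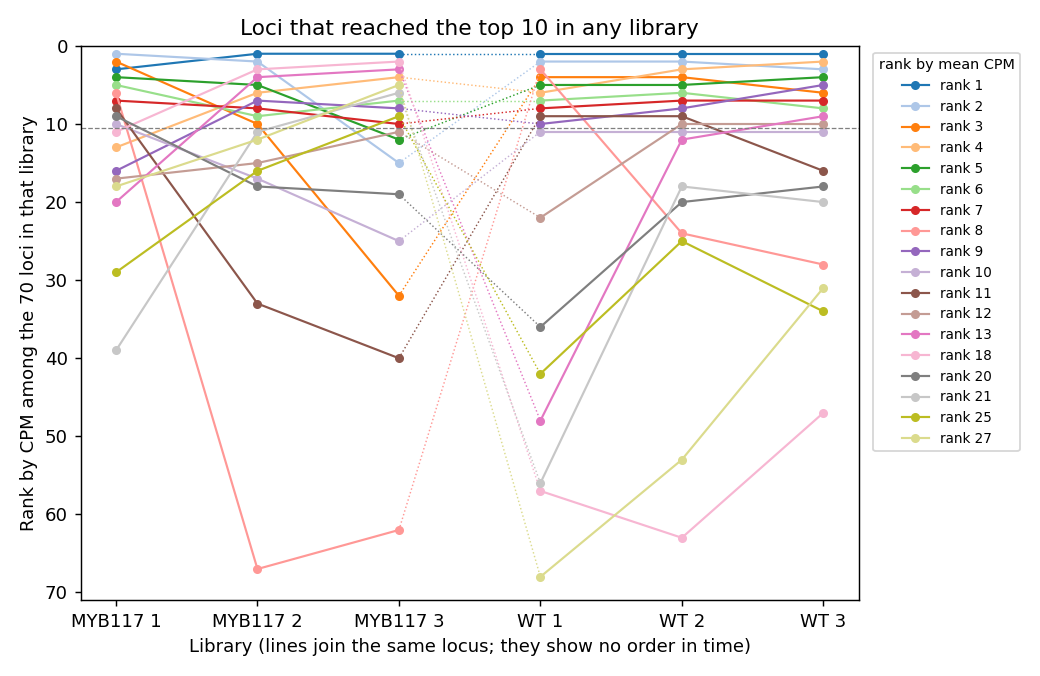
Rank by CPM among the 70 loci in each library (y axis, 1 at the top) for the 18 loci that reached the first 10 in any library (x axis), MYB117 left and WT right. Ranks 1, 6 and 7 stay above the dashed line, within the first 10, in all 6 libraries, while ranks 8 and 18 cross most of the scale.

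At the head of the order, ranks 1, 6 and 7 were among the first 10 in all 6 libraries, and 18 loci were among the first 10 in at least 1 library. The smallest span of ranks was that of rank 1, which stood between 1 and 3. Other loci moved across most of the order. Rank 8 stood at 6, 67 and 62 in the MYB117 libraries and at 3, 24 and 28 in the WT libraries. Rank 27 stood at 18, 12 and 5 in the MYB117 libraries and at 68, 53 and 31 in the WT libraries. The span between a locus's best and worst rank had a median of 27 over the 70 loci, was at most 10 at 9 loci and at least 45 at 8 others. Pairs of WT libraries shared 8 or 9 of their first 10 loci, pairs of MYB117 libraries 3 to 7, and pairs of different genotype 5 to 9.

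With any 1 library left out, the rule chose 67 to 75 loci, of which 65 to 69 were among the 70. These choices share most of their libraries with the full one. With TMM-scaled CPM the rule chose 70 loci, 69 of them shared. Library by library, 49, 47 and 48 of the 70 were among the first 70 of all loci in MYB117, against 56, 61 and 56 in WT.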

How the data were processed

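Leaf RNA of 3 MYB117 and 3 WT plants was sequenced. The authors deposited raw read counts per locus, 1 library per file, without normalization. The submitters' processing notes name HTSeq 0.6.1, Cufflinks and HISAT2 2.1.0. Not given in the sources used here are genome build, annotation and strand setting. The last 5 rows of each file, reads given to no locus, held 27.0% to 29.6% of all reads and were left out. Reads on more than 1 locus (10.1% to 12.5%) were among them, so overlapping loci are undercounted, and near-identical gene copies and antisense genes are uncertain.

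CPM were computed on reads in loci. Counts were tested with edgeR 4.0.16 (R 4.3.3; quasi-likelihood F test, TMM, low count filter at its defaults, minimum 10 and total 15, without covariates, Benjamini-Hochberg adjustment over 26854 loci, two-sided), checked on simulated data. SE is the log2 fold change divided by the square root of F. Loci printed by identifier are the 2 largest rises and 2 largest falls among called loci without overlap. Other loci are described by rank: ranks 1 to 10 and the 5 on each side of the level limit by that rule, the rest chosen after their values were seen. The 70 loci and this rule were chosen with earlier results of these data known. Separate plants may share a transformation event. The calls set the genotype difference against the spread between these plants, and not against a spread between transformation events. Planned gene and marker lists needed product names and were not used. Alternatives were other scalings, DESeq2 1.42.0, limma voom (3.58.1), no low count filter, a replicate block and left-out libraries.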

Additional observations from a re-analysis of the deposited data

How the results depend on the processing

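The number of loci, 70, was 174 at a limit of 500 CPM, 33 at 2000 CPM and 45 when unassigned reads entered the CPM. Their share of reads was 10.2% in MYB117 and 16.4% in WT with unassigned reads in the total, 20.9% and 30.5% at 500 CPM, 10.3% and 17.1% at 2000 CPM, and 18.1% in MYB117 with no ratio limit, where the difference was -4.72 points. Without the loci of ranks 2, 3 and 8 it was -7.03 points; that comparison and the counts of loci with replicate 1 highest or lowest were chosen after the values were seen. Of the 70 loci, 35 were called lower and 5 higher with DESeq2, and 18 lower and 3 higher with limma voom. Over all tested loci limma voom called 7.62% lower and 10.7% higher. Without replicate 1 of both genotypes, 39 of the 70 were called lower and 3 higher. With 1 library left out (edgeR), 0 to 3 were called higher and 0 to 8 lower; the lowest counts came without MYB117 replicate 2 or 3. Without MYB117 replicate 1, 1 was called higher and 3 lower, against 5.84% and 2.63% of all tested loci. Without WT replicate 2, 0 were called higher and 3 lower, against 5.79% and 2.46%. Without WT replicate 3, 1 was called higher and 6 lower, against 8.66% and 5.54%. Over all tested loci, the left-out libraries gave 1236 to 2839 higher and 316 to 2273 lower, against 2669 and 1930, DESeq2 3483 lower, and no scaling beyond the library total 1210 lower; the cause was not tested. The signs of the 4 loci printed by identifier held in every alternative run. They were chosen for large differences without overlap in these same libraries, so this outcome was close to fixed and adds no support. The labels do not say that the replicate numbers mark a shared batch, so the numbers were not taken as pairs. Same-numbered plants correlated in their deviations from the genotype mean at 0.37, 0.18 and 0.04. MYB117 replicate 1 correlated best with its own number, and MYB117 replicates 2 and 3 did not. With a replicate block, 13 of the 70 loci were called lower, 4 of them among the 9, and 2 higher, with 2067 lower and 2570 higher over all tested loci.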
